A study of Mus musculus with 98 samples.

Results

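Mouse transcripts of 8 bile duct and liver progenitor genes (Krt19, Krt7, Epcam, Sox9, Spp1, Prom1, Cftr and Afp) were followed in livers repopulated with human hepatocytes and in livers repopulated with mouse hepatocytes. The 8 genes were chosen by symbol as known markers of these cells, with earlier results of these data already seen. Each matched 1 of the 19689 mouse rows of the liver count table. The series asks what part hepatocytes of another species play in daily timing, and RNA sequencing counts of liver were collected around the clock. All mice were 10-week-old males of the FRGN strain, homozygous for deletions of Fah, Rag2 and Il2rg and crossed with a non-obese diabetic strain. The Hu group (15 liver libraries) received human hepatocytes through the spleen, and the labels say that Hu mice were taken only above 70% repopulation. The Mu group (12 liver libraries) received murine hepatocytes and serves as the control. Both groups shared the 3 deletions, the cycles of nitisinone (NTBC, the drug that protects hepatocytes lacking Fah), the SMX/TMP antibiotic and the dextrose in the drinking water. Livers were taken around the day, and the zeitgeber time (ZT) counts the hours from lights on. Each of ZT 2, 6, 10, 14, 18 and 22 had 2 or 3 livers per group. The labels do not state whether each library is a separate mouse, so p-values measure the spread between these libraries. Mouse rows of a Mu liver can hold host cells and transplanted hepatocytes, whereas those of a Hu liver can hold host cells and any human reads assigned to mouse genes, a share that was not measured here.

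Bile ducts are lined by cholangiocytes, which carry keratins that hepatocytes of a healthy adult liver lack. When hepatocytes are lost or cannot divide, cells with duct markers can multiply and spread from the portal tracts, a state known as ductular reaction, and hepatocytes themselves can switch on part of the duct program. Alpha-fetoprotein, the product of Afp, is made by hepatocytes before birth, is nearly silent in the adult liver, and can return in regenerating liver and in liver tumours.

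The bases upstream of 3 of the genes are shown because Afp is the fetal hepatocyte gene of the group, Spp1 is the duct gene with several motif matches, and Epcam is a duct gene whose upstream bases held none. RefSeq sequences on GRCm38.p6 were found for 6 of the 8 genes (Krt7, Epcam, Spp1, Prom1, Cftr and Afp). Each line gives the 250 bases before the RefSeq start, on the strand of the gene, with matches to 4 short motifs in capitals. The regions are chr5:90490464-90490713 for Afp, chr5:104434861-104435110 for Spp1 and chr17:87635729-87635978 for Epcam, all on the plus strand.
Afp: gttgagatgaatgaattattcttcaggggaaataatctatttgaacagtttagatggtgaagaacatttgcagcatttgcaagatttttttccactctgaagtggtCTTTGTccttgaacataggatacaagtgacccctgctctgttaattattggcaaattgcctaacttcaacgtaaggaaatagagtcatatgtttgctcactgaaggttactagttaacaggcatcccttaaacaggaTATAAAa
Spp1: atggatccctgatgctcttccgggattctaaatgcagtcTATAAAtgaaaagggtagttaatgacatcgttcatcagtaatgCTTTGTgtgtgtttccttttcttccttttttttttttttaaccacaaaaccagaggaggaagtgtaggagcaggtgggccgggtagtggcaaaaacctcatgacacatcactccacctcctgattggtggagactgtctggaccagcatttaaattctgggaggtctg
Epcam: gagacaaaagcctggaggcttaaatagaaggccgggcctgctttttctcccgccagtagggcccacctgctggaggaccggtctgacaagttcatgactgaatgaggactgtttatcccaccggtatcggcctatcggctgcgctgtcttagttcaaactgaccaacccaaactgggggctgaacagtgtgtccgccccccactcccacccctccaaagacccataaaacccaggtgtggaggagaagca
Motifs were searched on both strands. Counted back from the RefSeq start, Afp held the SOX family letters ACAAAG, read as CTTTGT on the strand shown, at -144 to -139. It held the TATA box letters TATAAA at -7 to -2. The GENCODE start of Afp (90490737) lies past the end of the window, so distances from that start are larger. Spp1 held the TATA box letters at -211 to -206 and the SOX letters at -168 to -163. No matches overlapped. Among 32851 mouse windows of the same length, the SOX letters were in 16.5% and the TATA letters in 12.4%. The letters of the Notch effector RBPJ (TGGGAA) were in 21.6% of windows and those of the TEAD factors (GGAATG) in 12.6%. Prom1 held the RBPJ letters on the other strand at -116 to -111. The windows of Prom1 and Krt7 lie inside their GENCODE genes, so they are upstream of the RefSeq start only. Krt7, Epcam and Cftr held no match to any of the 4 motifs.

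Total counts were 22.95 to 122.2 M (M, 1000000 counts) in Hu and 97.1 to 118.3 M in Mu livers. Of the counts of a Hu liver, 15.86 to 93.07% lay in human rows (median 58.7%), so that mouse rows held 7.70 to 87.9 M counts. In 11 of 15 Hu livers under 70% of the counts lay in human rows. The 70% of the labels is a level of repopulation, a different measure, so this does not show that a mouse missed it. Mu livers held 0.00592 to 0.0204% in human rows. Levels are given as CPM, counts per 1000000 counts in the mouse rows of the same library, unless all rows are named. Fah, the deleted gene that transplanted cells restore, was at 6.23 to 35.8 CPM in Hu and 442 to 687 CPM in Mu livers, which matched the labels. Several libraries stood apart. Hu ZT 18 replicate 3 had the highest human share and the fewest mouse counts, Hu ZT 22 replicate 2 had the lowest total, and Mu ZT 10 replicate 1 had the highest Afp of its group.

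All 8 genes were higher in Hu than in Mu livers (edgeR quasi-likelihood test, adjusted p under 0.05), in a background where 42.5% of the 14977 mouse genes tested were higher and 37% lower. Time-averaged log2 differences, Hu minus Mu, ran from 1.20 for Sox9 to 4.08 for Afp, with a median of 2.23 over the 8 and 0.07 over all genes tested. In CPM, every Hu liver lay above every Mu liver for 5 of the 8 (Epcam, Sox9, Spp1, Prom1 and Cftr), against 26.2% of all genes tested, and 3.67% had every Hu liver below every Mu liver. In these bulk libraries, more cells of a type, more RNA per cell and less RNA of other mouse cells in the same rows cannot be told apart. The fit also scales libraries by TMM factors (trimmed mean of M values, 1.03 to 1.81 in Hu and 0.731 to 0.875 in Mu livers). Its log2 differences are therefore smaller than those of the CPM: without the factors the 8 lay between 1.92 and 4.72, the median of all genes moved from 0.07 to 0.74, and the share of calls that were higher in Hu moved from 53.5% to 84.9%.

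**Figure D1:**
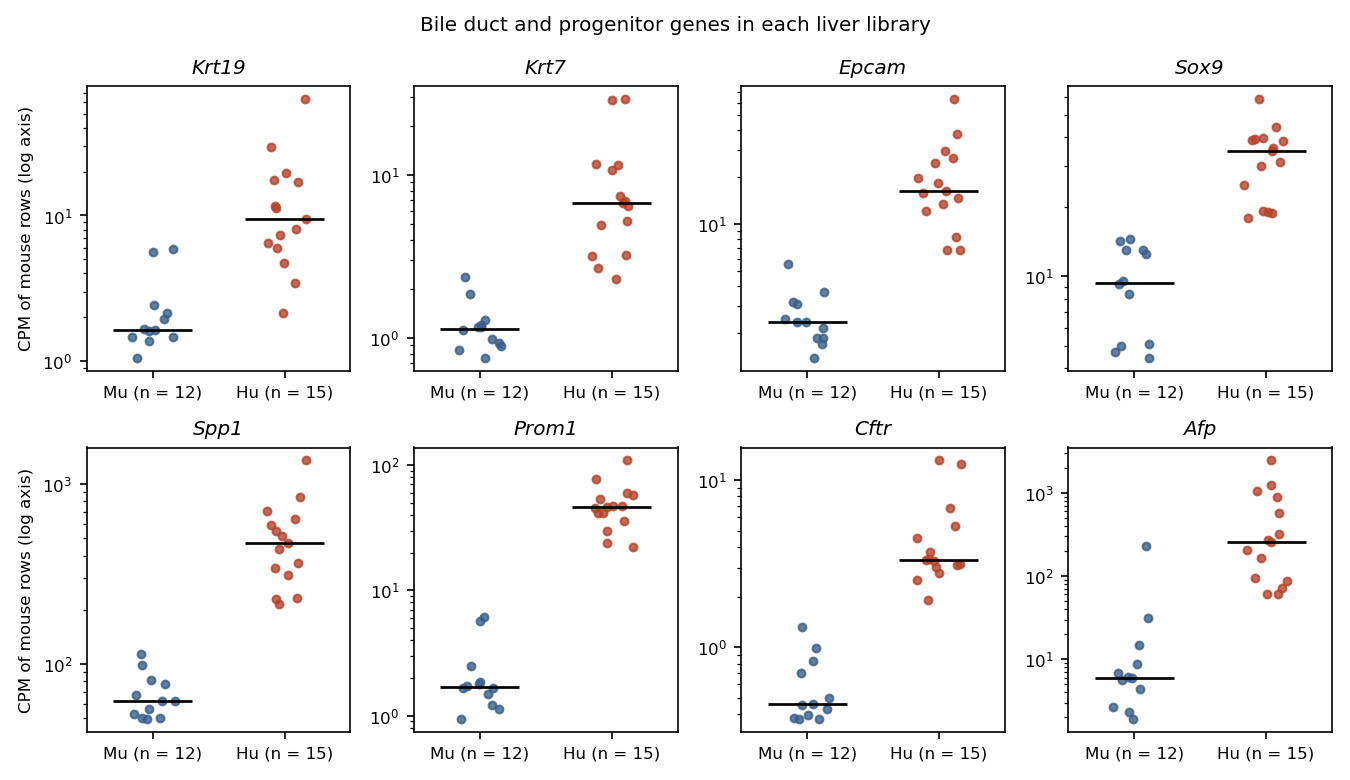
Each point is the level of a gene in 1 liver, in CPM of mouse rows on a log axis, for 12 Mu and 15 Hu livers, and bars are medians. The groups do not overlap for Epcam, Sox9, Spp1, Prom1 and Cftr, while 4 Mu livers reach into the Hu range for Krt19, 1 for Krt7 and 1 for Afp.

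The structural duct genes were the keratins Krt19 (ENSMUSG00000020911, chr11:100140810-100148665, minus strand) and Krt7 (ENSMUSG00000023039, chr15:101411043-101430313), which build the intermediate filaments of cholangiocytes, and Epcam (ENSMUSG00000045394, chr17:87635979-87651129), an adhesion molecule of duct and progenitor epithelium. All positions are of GRCm38 in GENCODE M21, and all 8 are protein-coding genes. Krt19 was at 2.14 to 63.3 CPM in Hu livers (median 9.43) and at 1.05 to 5.85 CPM in Mu livers (median 1.64). Of the 15 Hu livers, 12 lay above the highest Mu liver, and 4 Mu livers lay above the lowest Hu liver. Both Mu livers at ZT 2 were the highest of their group, at 5.64 and 5.85 CPM, and the other 10 were at or under 2.44 CPM. The log2 difference was 1.88 ± 0.35 (SE; edgeR adjusted p = 3.77e-05), and 2.13 without the 5 livers of ZT 2. Krt7 was at 2.31 to 29.2 CPM in Hu livers (median 6.72) and at 0.753 to 2.35 CPM in Mu livers (median 1.14), and 14 of 15 Hu livers exceeded all Mu livers. Its log2 difference was 2.16 ± 0.28 (SE; edgeR adjusted p = 2.77e-07). Epcam was at 6.79 to 63.5 CPM in Hu livers (median 16.3) and at 1.39 to 5.58 CPM in Mu livers (median 2.37), with no overlap. Its log2 difference was 2.26 ± 0.26 (SE; edgeR adjusted p = 3.47e-08). Epcam and Krt19 were highest in Hu ZT 18 replicate 3, at 63.5 and 63.3 CPM, and so was Krt7, at 29.2 CPM, followed by 28.8 CPM in Hu ZT 10 replicate 1.

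Sox9 (ENSMUSG00000000567, chr11:112782224-112787760) encodes the transcription factor that marks embryonic and adult duct cells and hepatocytes next to the portal tract. It was at 17.8 to 58.7 CPM in Hu livers (median 34.9) and at 4.43 to 14.5 CPM in Mu livers (median 9.39). The groups did not overlap, although the log2 difference was the smallest of the 8, at 1.20 ± 0.12 (SE; edgeR adjusted p = 3.16e-09). Sox9 was also the most even gene across Hu livers, with its highest liver 3.29-fold above its lowest, against 40.5-fold for Afp.

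Spp1 (ENSMUSG00000029304, chr5:104435118-104441050) encodes osteopontin, a secreted matrix protein made by cholangiocytes and also by macrophages. It was at 214.5 to 1352 CPM in Hu livers (median 470.6) and at 49.2 to 113 CPM in Mu livers (median 62.3), without overlap. Its log2 difference was 2.19 ± 0.21 (SE; edgeR adjusted p = 1.72e-09). Genes of lipid-associated macrophages, another known source of osteopontin, moved with it. Of 8 such genes 7 were higher in Hu livers and Fabp5 was lower, and their summed level was 695 to 1655 CPM in Hu and 141 to 381 CPM in Mu livers. Trem2, their receptor for lipids, had a log2 difference of 2.57 and Gpnmb, a membrane glycoprotein, of 2.49. Their part in the Spp1 level was not tested.

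Prom1 (ENSMUSG00000029086, chr5:43993620-44102032, minus strand) encodes prominin-1, or CD133, a protein of membrane protrusions that marks progenitor cells of several tissues. It was at 22.2 to 108.8 CPM in Hu livers (median 46.3) and at 0.930 to 6.08 CPM in Mu livers (median 1.70). No libraries overlapped, and the log2 difference was 3.77 ± 0.30 (SE; edgeR adjusted p = 1.01e-10). The 2 highest Mu livers, at 6.08 and 5.72 CPM, were ZT 2 replicate 2 and ZT 10 replicate 1. Cftr (ENSMUSG00000041301, chr6:18170687-18322768), the chloride channel through which cholangiocytes secrete into bile, had few counts, 58 to 376 in Hu and 36 to 140 in Mu livers. In CPM it was at 1.91 to 13.1 in Hu livers (median 3.31) and at 0.370 to 1.33 in Mu livers (median 0.457). The groups did not overlap, and the log2 difference was 2.30 ± 0.25 (SE; edgeR adjusted p = 1.26e-08).

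Afp (ENSMUSG00000054932, chr5:90490737-90508907) had the widest spread among Hu livers, and its place above Prom1 in the size of the difference rested on 1 library. It was at 60.1 to 2438 CPM in Hu livers (median 253) and at 1.89 to 227 CPM in Mu livers (median 6.04). Of 12 Mu livers 11 lay below every Hu liver, at or under 31.2 CPM, and the exception was Mu ZT 10 replicate 1. Among Hu livers, Hu ZT 22 replicate 2 at 2438 CPM was followed by Hu ZT 2 replicate 3 at 1226 CPM and Hu ZT 10 replicate 1 at 1044 CPM. The log2 difference was 4.08 ± 0.77 (SE; edgeR adjusted p = 3.74e-05). It was 5.39 without Mu ZT 10 replicate 1 and 3.54 without Hu ZT 22 replicate 2, whereas Prom1 was no lower than 3.64 in any fit that left out 1 library. With the 4 Hu livers at or above 70% human counts alone it was 3.10, against 3.46 for Prom1. Afp stayed past the threshold in each of the 27 fits that left out 1 library. Mu ZT 10 replicate 1 also held the highest sums of its group for dividing-cell genes (38.2 CPM, group median 12.6), for fetal and regeneration genes (130 CPM, group median 44.1) and for Kupffer cell genes (759 CPM, group median 521). Their part in its Afp level was not tested.

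Since human cells take part of each Hu library, the level was also expressed per 1000000 counts of all rows, mouse and human, without TMM. On this scale 16.9% of 14732 genes tested were higher in Hu livers and 60.9% lower, against 42.5% and 37% of genes on the mouse scale, and the median of all genes was -0.70. All 8 genes were still higher in Hu livers, with log2 differences of 0.41 ± 0.18 for Sox9 (SE; edgeR adjusted p = 0.0341), 0.93 ± 0.29 for Krt19 (edgeR adjusted p = 0.00482), 3.02 ± 0.35 for Prom1 and 3.34 ± 0.73 for Afp, and from 1.28 to 1.44 for Krt7, Epcam, Spp1 and Cftr. Sox9 was at 4.07 to 25.7 CPM of all rows in Hu and 4.43 to 14.5 in Mu livers, and only 4 of 15 Hu livers lay above the highest Mu liver. Prom1 remained the best separated, with 14 of 15 Hu livers above the whole Mu group, and the exception, Hu ZT 18 replicate 3, was at 4.17 CPM of all rows.

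Related gene lists were read beside the 8 genes. Of 20 other bile duct genes 19 were higher in Hu livers and 0 lower, with a median log2 difference of 2.08. They include Bicc1 (2.96), Cldn7 (2.78), a tight junction protein, and Pkhd1 (1.88), the fibrocystin of the primary cilium. Pdzk1ip1 was at -0.39 (edgeR adjusted p = 0.105), short of the threshold. Per all rows, 15 of the 20 were higher and 2 lower. Of 10 fetal and regeneration genes tested 9 were higher, with a median of 2.82, among them Sox4 (3.12), Cdkn1c (1.91) and Peg3 (3.10). Lgr5, a Wnt target of hepatocytes around the central vein, was lower, at -2.20. Of 12 Notch and YAP pathway genes 11 were higher, with a median of 1.16. The Notch ligand Jag1 differed by 1.93 and the Notch target Hey1 by 1.95, both past the threshold. Per all rows 5 of the 12 were higher and 2 lower, with a median of 0.35. Yap1 itself was the exception, at -0.20 with TMM, but its direction turned with the scale: without TMM factors it was higher, at 0.47, and all 12 genes were higher. The other genes of the albumin family were not higher in Hu livers on either scale of mouse rows. With TMM, Alb (-0.78), Afm (-0.86) and Gc (-0.78) were lower in Hu livers. Without TMM factors they were at -0.17, -0.24 and -0.16, and none of the 3 passed the threshold (edgeR adjusted p from 0.201 to 0.462). Zhx2, a repressor of Afp after birth, turned direction, being lower with TMM (-0.42) and higher without (0.27, edgeR adjusted p = 0.0165). Zbtb20, another repressor of Afp, was at 0.21 with TMM (edgeR adjusted p = 0.216) and higher, at 0.88, without.

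Markers of the other liver cell types also differed between the groups. Of 13 hepatocyte genes 0 were higher and 11 lower (median -1.52), with Cyp2e1, an enzyme of hepatocytes around the central vein, at -4.72. All 10 stellate cell genes were higher (median 1.60), as were all 8 genes of sinusoidal endothelium (median 0.78), 5 of 8 Kupffer cell genes (median 0.62) and all 6 genes of dividing cells (median 1.54). The median of the 8 duct and progenitor genes, 2.23, thus lay above the medians of the stellate, endothelial and Kupffer lists. It was closer to those of the other duct genes (2.08) and of lipid-associated macrophage genes (1.97). The median of the fetal and regeneration genes (2.82) was higher. Per all rows the medians were 1.32 for the 8 genes, 1.24 for the other duct genes, 2.04 for fetal and regeneration genes, 1.22 for lipid-associated macrophage, 0.79 for dividing-cell, 0.55 for stellate, -0.19 for endothelial, -0.21 for Kupffer and -2.16 for hepatocyte genes. The endothelial and Kupffer medians thus changed sign with the scale, and the other medians named here kept theirs. The summed level of hepatocyte genes was 2894 to 24707 CPM in Hu and 28877 to 35659 CPM in Mu livers, and that of stellate genes 717 to 11007 CPM in Hu and 424 to 757 CPM in Mu livers. The part of these cell types in the levels of the 8 genes was not tested. Genes of exocrine pancreas summed to 0.187 to 2.35 CPM in Hu and 0.366 to 8.06 CPM in Mu livers, and mesothelial genes summed to 3.87 to 47.3 CPM in Hu and 4.01 to 14.6 CPM in Mu livers. Of 4 intestine genes tested 2 were higher and 2 lower.

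**Figure D2:**
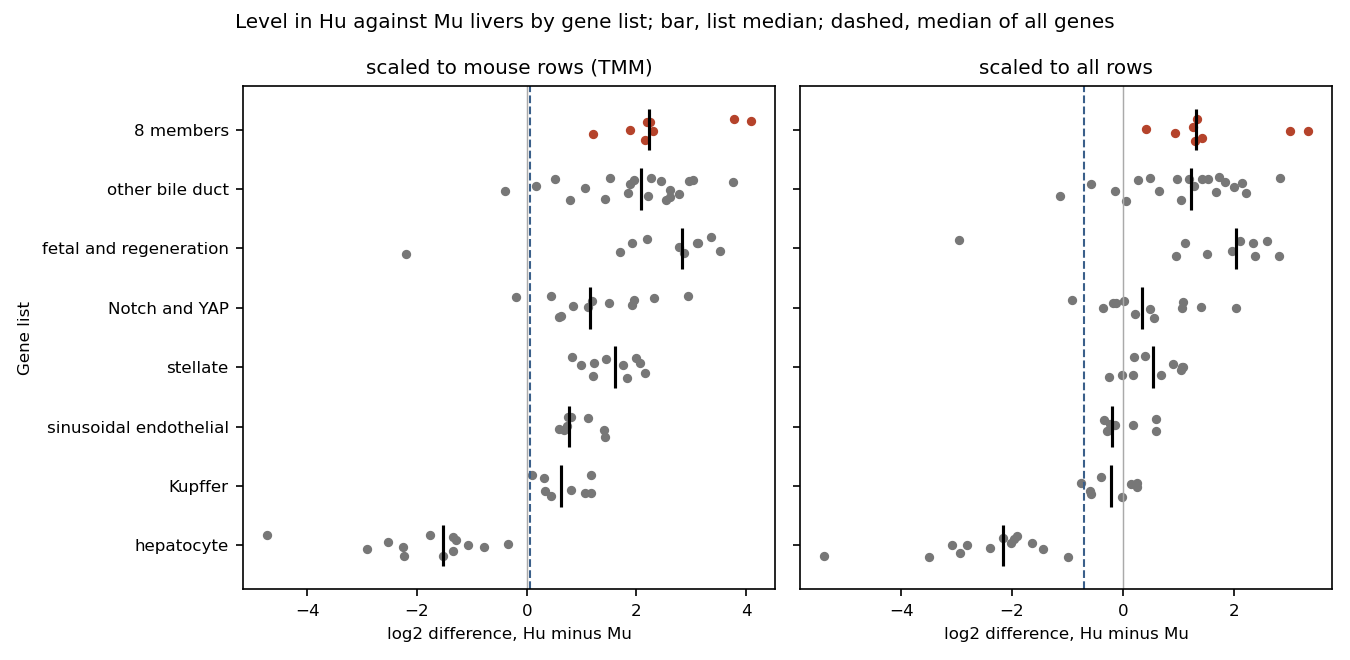
Each point is the log2 difference, Hu minus Mu, of 1 gene, with libraries scaled to mouse rows by TMM (left) or to all rows (right). Bars are list medians (2.23 and 1.32 for the 8 genes, in red) and the dashed line is the median of all genes tested (0.07 and -0.70).

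The level at each time point shows whether the difference depended on the hour of sampling. In CPM of mouse rows, every Hu liver lay above every Mu liver at each of the 6 time points for all 8 genes, against 39.7% of all genes tested. No test was run at single times. Ratios of the mean CPM, Hu over Mu, were 1.99 at ZT 2 to 16.7 at ZT 18 for Krt19, 14.6 to 28.03 for Prom1, 4.52 to 12.02 for Spp1 and 5.94 at ZT 10 to 174 at ZT 22 for Afp. The low ratio of Krt19 at ZT 2 came with the highest mean of the Mu group, 5.74 CPM, and its high ratio at ZT 18 with Hu ZT 18 replicate 3, without which it was 4.57. That of Spp1 at ZT 18 was 5.16 without the same liver. Both ends of the Afp range rested on 1 library each. At ZT 10 its ratio was 257 without Mu ZT 10 replicate 1, and at ZT 22 it was 8.37 without Hu ZT 22 replicate 2, so that the order of these hours reversed. The ratio of Prom1 at ZT 10, 23.2 with all livers, was 82.97 without Mu ZT 10 replicate 1. Per all rows, the separation held at all 6 times for 4 genes (Krt7, Epcam, Spp1 and Prom1), against 2.44% of all genes tested. On that scale it held at 5 times for Cftr, 4 for Krt19, 4 for Afp and 2 for Sox9, whose ratio ran from 0.696 to 2.53.

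A daily rhythm of Mu livers was found for 1 of the 8 genes, Sox9, against 17.3% of all genes tested (edgeR test of a 24 h cosine, adjusted p under 0.05). Mean Sox9 of the 2 Mu livers was 11.02 CPM (ZT 2), 5.04 (ZT 6), 4.57 (ZT 10), 8.82 (ZT 14), 13.02 (ZT 18) and 14.4 (ZT 22). The 4 livers of ZT 6 and 10 were the lowest of the group, at 4.43 to 5.11 CPM, and the 4 of ZT 18 and 22 the highest, at 13.02 to 14.5 CPM. The fitted amplitude, the log2 distance from mean to peak, was 0.92, with the peak at ZT 20.6 (edgeR adjusted p = 0.000130). In Hu livers the means were 34.8, 27.7, 40.2, 28.8, 36.3 and 28.9 CPM in the same order, with an amplitude of 0.03 (edgeR adjusted p = 0.987). The difference of the rhythms passed the threshold (edgeR adjusted p = 0.0212), as for 1.28% of all genes tested. It missed it without TMM factors (0.116), per all rows (0.166), without ZT 2 (edgeR adjusted p = 0.0511) and with ZT as a factor in place of the cosine. Per all rows Sox9 had amplitudes of 0.88 in Mu (edgeR adjusted p = 0.0561) and 0.64 in Hu livers (edgeR adjusted p = 0.0220). On that scale 8605 of 14732 genes tested were rhythmic in Hu livers. The human share of Hu livers averaged 73.8% at ZT 10 and 14 and 41.7 to 67.03% at the other times, and its part in the Hu rhythm on that scale was not tested.

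No other gene of the 8 was called rhythmic in Mu livers. The smallest adjusted p-values were those of Cftr, at 0.117 (edgeR; amplitude 0.67, unadjusted p = 0.0320), and Afp, at 0.146 (edgeR; amplitude 1.92). The Afp amplitude was 1.12 without Mu ZT 10 replicate 1. Among Mu livers Cftr was highest at 1.33 CPM (ZT 22 replicate 2), 0.985 CPM (ZT 2 replicate 2) and 0.824 CPM (ZT 22 replicate 1). In Hu livers 0 of the 8 were rhythmic, against 0.167% of all genes tested by edgeR. Without adjustment only Krt7 was under 0.05 (edgeR unadjusted p = 0.0368 in the fit of all 27 libraries, adjusted p = 0.285). DESeq2 called none of them either.

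**Figure D3:**
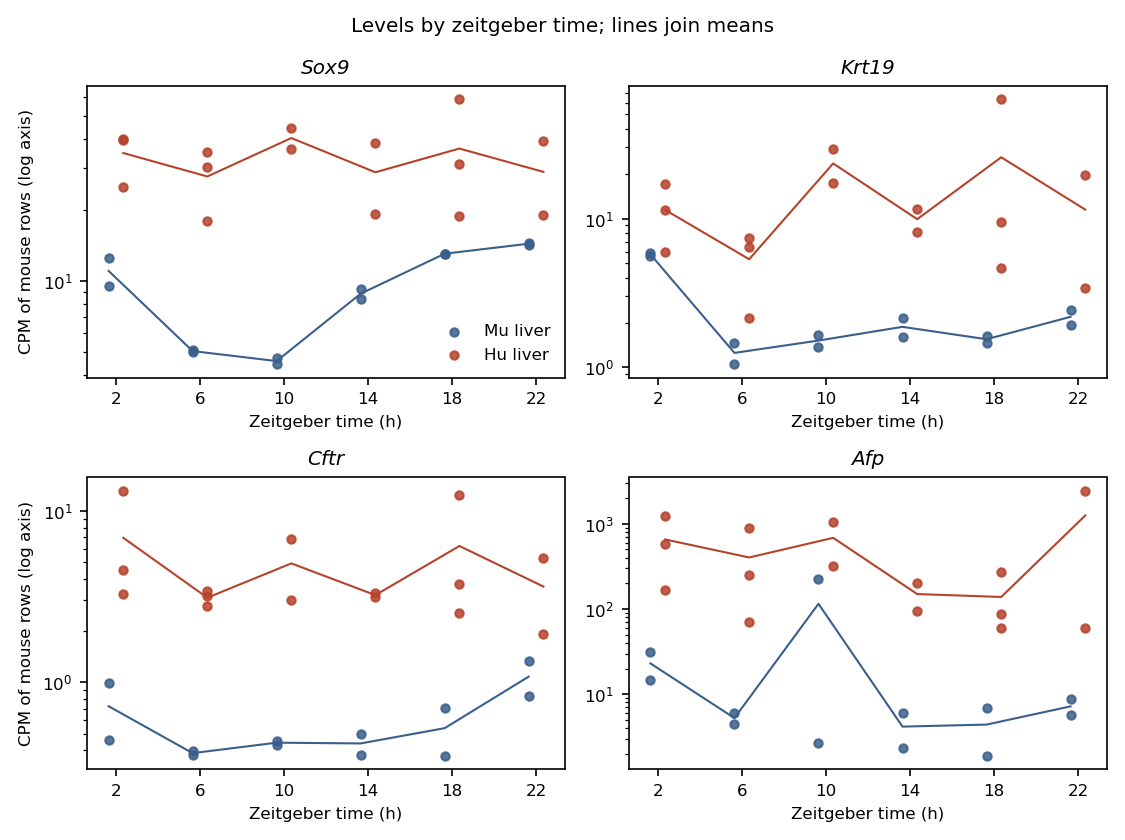
Levels of Sox9, Krt19, Cftr and Afp by zeitgeber time, in CPM of mouse rows on a log axis. Each point is 1 liver and lines join the means of the Mu (blue) and Hu (red) livers, and Sox9 of Mu livers is lowest at ZT 6 and 10 (4.43 to 5.11 CPM).

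Within the 15 Hu livers, levels were set against the human share of counts to see whether the genes followed the extent of humanization. On the mouse scale, 5 of the 8 rose with the share, against 22.9% of 13879 genes tested with a positive and 18.8% with a negative slope (edgeR, adjusted p under 0.05). Slopes, in log2 per 10 percentage points, were 0.37 ± 0.13 for Krt19 (SE; edgeR adjusted p = 0.0301), 0.30 ± 0.11 for Krt7 (0.0374), 0.27 ± 0.09 for Epcam (0.0248), 0.23 ± 0.08 for Cftr (0.0299) and 0.21 ± 0.07 for Spp1 (0.0295). Sox9, at 0.11 ± 0.05 (edgeR adjusted p = 0.0992), Afp, at 0.20 ± 0.41 (0.719), and Prom1, at -0.00 ± 0.09 (0.995), did not pass the threshold. Krt19 was at 2.14 to 29.5 CPM in the 11 livers under 70% (median 7.36) and at 11.7 to 63.3 CPM in the 4 others (median 17.2), so the ranges overlapped. Prom1 had medians of 46.3 and 46.1 CPM in the same livers.

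These slopes rested on a few livers. Without Hu ZT 18 replicate 3, at 93.07%, 0 of the 8 had a positive slope past the threshold by edgeR, and the slopes were 0.29 for Krt19, 0.25 for Krt7, 0.18 for Epcam, 0.13 for Spp1 and 0.19 for Cftr. Without Hu ZT 6 replicate 1 or Hu ZT 18 replicate 1 the count was 1, and without Hu ZT 2 replicate 2 it was 2. Krt7 was also lost without Hu ZT 14 replicate 1 or Hu ZT 22 replicate 1, and Krt19 without Hu ZT 18 replicate 2. With no terms for time in the model, Spp1 (0.11, edgeR adjusted p = 0.121) and Cftr (0.13, edgeR adjusted p = 0.152) were lost. Genes of several other lists rose with the share as well. Positive slopes past the threshold were found for 5 of 8 Kupffer cell genes (median 0.21) and 5 of 8 lipid-associated macrophage genes (median 0.20). The same held for all 5 mesothelial genes tested (median 0.39). Of 10 fetal and regeneration genes (median 0.03) and 6 dividing-cell genes (median -0.02), 0 had such a slope. All 10 stellate genes had positive slopes past the threshold (median 0.47), as had 7 of 8 endothelial genes (median 0.29), 8 of 12 Notch and YAP genes (median 0.17) and 6 of 20 other duct genes (median 0.14). In the last list Krt23 fell with the share, at -0.23, and hepatocyte genes had a median slope of -0.29, with 5 of 13 falling. The median slope of the 8 genes was 0.22. The part of the stellate and endothelial shift in these slopes was not tested.

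Per all rows 0 of the 8 rose with the human share, against 0.582% of 13734 genes tested, and 2 fell, against 80%. These were Sox9, at -0.20 (edgeR adjusted p = 0.0200), and Prom1, at -0.32 (edgeR adjusted p = 0.0219), beside a median of -0.31 over all genes. The human share and the level per all rows have the same denominator. A gene with a constant level in CPM of mouse rows therefore falls per all rows as the human share rises. The slopes of Krt19 (0.05), Krt7 (-0.02), Epcam (-0.06), Cftr (-0.07), Spp1 (-0.11) and Afp (-0.09) did not pass the threshold, with edgeR adjusted p-values from 0.193 to 0.869. Of all slopes past the threshold 54.9% were positive on the mouse scale, 89.9% without TMM and 0.723% per all rows. The estimated slopes of Krt7, Epcam, Sox9, Spp1, Cftr and Afp were positive on the mouse scale with TMM and negative per all rows. None of these genes passed the threshold on both of these scales, so a change of sign was not established for any of them.

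**Figure D4:**
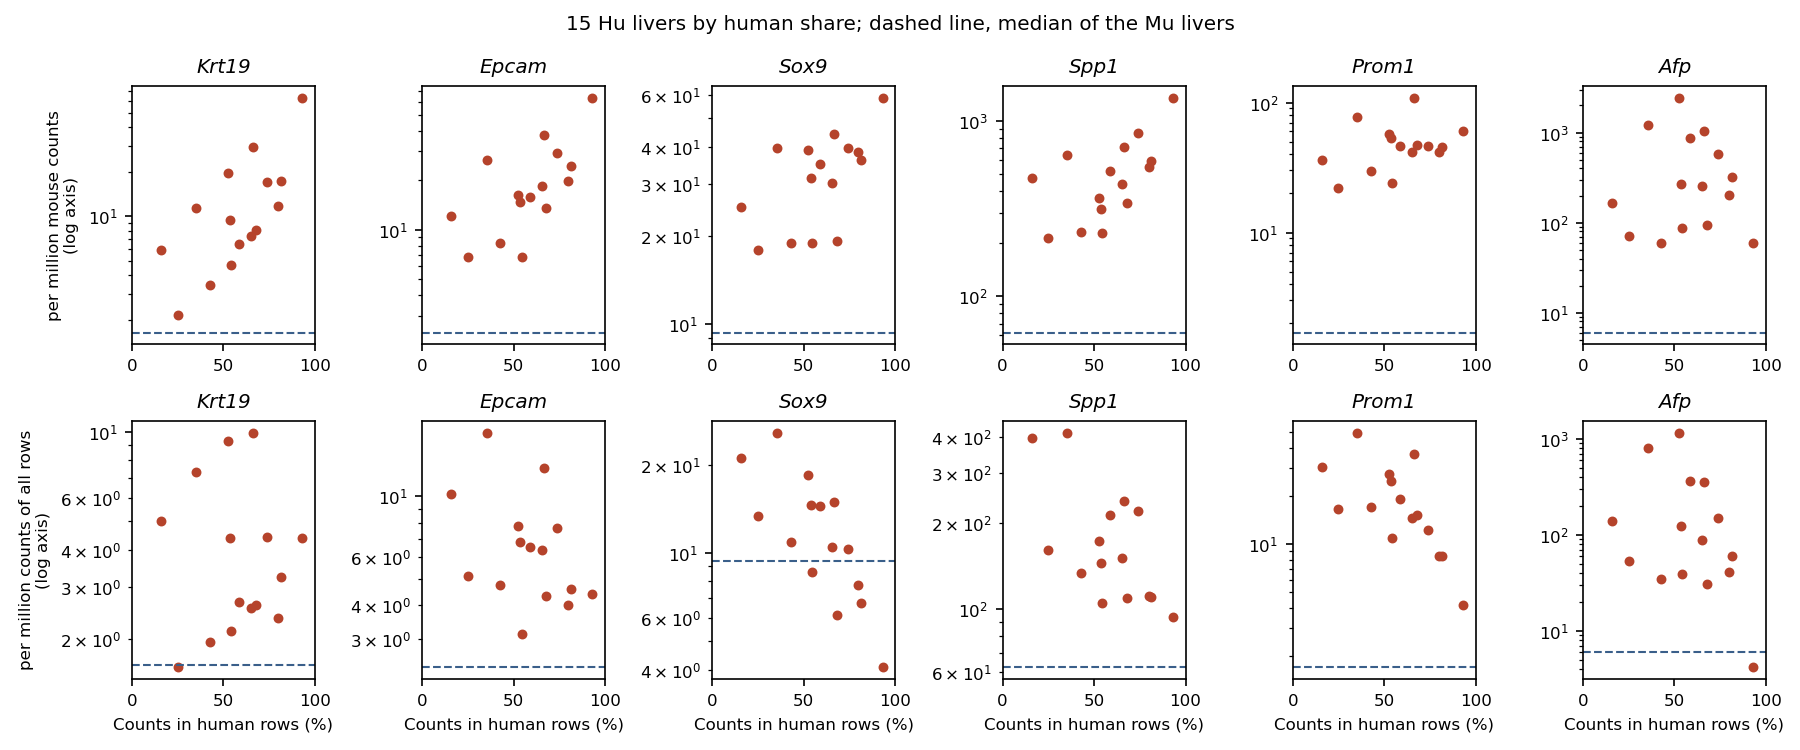
Each point is 1 of the 15 Hu livers, by the percent of its counts in human rows and the level of the gene on a log axis, in CPM of mouse rows (top) or of all rows (bottom). The dashed line is the median of the Mu livers, and the liver at 93.07% is the highest for Krt19, Epcam, Sox9 and Spp1 in the top row and the lowest for Sox9, Spp1, Prom1 and Afp in the bottom row.

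The 8 genes did not all vary together among Hu livers. Pearson correlations over the 15 livers used log2 CPM scaled by the TMM factors. They are given as a description, since all genes share the library, human share and hour of each liver. They were 0.923 for Epcam with Spp1, 0.913 for Krt19 with Krt7 and 0.898 for Krt19 with Epcam (Spearman 0.868, 0.879 and 0.896). Afp had 0.676 with Prom1 and 0.626 with Sox9, but 0.299 with Krt19, 0.208 with Krt7 and 0.247 with Spp1. Hu ZT 18 replicate 3 was highest in Krt19, Krt7, Epcam, Sox9 and Spp1 and lowest in Afp, at 60.1 CPM, next to 60.2 CPM in Hu ZT 22 replicate 1. Its Prom1 was also at 60.1 CPM, above the Hu median of 46.3 CPM, so this liver did not divide the genes as the correlations did. Hu ZT 10 replicate 1 was high in duct genes and in Afp, with 29.5 CPM of Krt19, 108.8 CPM of Prom1 and 1044 CPM of Afp.

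Among all other genes tested, those most like each gene over the 15 Hu livers were ranked by the same correlation. For Krt19 these were Mboat1 (0.974), Gpr161 (0.960) and Muc1 (0.956), the last a mucin of duct epithelium. For Krt7 they were Reln (0.970), Fstl3 (0.968) and Tmem108 (0.968), where Reln encodes reelin, a matrix protein of stellate cells. For Epcam they were D630003M21Rik (0.975), Wnk2 (0.972) and Ncam1 (0.967), the neural cell adhesion molecule that reactive duct cells and stellate cells can carry. The genes most like Sox9 were Tmem150c (0.956), Loxl1 (0.934), an enzyme that cross-links elastin, and Tmsb10 (0.931). Those most like Spp1 were Arhgef25 (0.941), Setd7 (0.928) and Scara3 (0.923), with Epcam at rank 4 of 14976. Prom1 and Cftr had less similar partners, led by Clu (0.851), which encodes clusterin, Slc30a7 (0.839) and Slc17a9 (0.829) for Prom1 and by Vegfc (0.851), a lymphatic growth factor, Cacna1c (0.846) and Fzd2 (0.844) for Cftr. In the same order, Spearman correlations were 0.796, 0.757 and 0.871 with Prom1 and 0.621, 0.700 and 0.782 with Cftr. Afp was followed most closely by Dgkd (0.913), Fat1 (0.909) and Morc4 (0.907), and the nearest of the other 7 genes was Prom1, at rank 235.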

How the data were processed

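The authors deposited a table of raw counts per gene for liver, in which each row is an Ensembl gene of either species, with no normalization. The submitters' processing notes name STAR and the builds GRCm38, mm10, GRCh38, hg38 and hg19. The counting program and annotation are not given in the sources used here. The labels' protocols name a directional library kit, but whether counting used strand is not given in the sources used here. Antisense or other transcripts without a row overlap Krt7, Spp1, Prom1, Cftr and Afp, and their reads may not be separable. Symbols matched 19615 of 19689 mouse rows and 0 of 17729 human rows, so human counterparts were not analysed here.

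Samples were grouped by the labels. Mouse rows of 27 liver libraries were fitted with edgeR 4.0.16 in R 4.3.3 (filterByExpr, TMM, quasi-likelihood F tests), with the group and a 24 h cosine and sine per group. Slopes on the human share used the 15 Hu livers with the same time terms. Benjamini-Hochberg adjustment ran over all genes tested, with a threshold of 0.05, and the scripts were tested on simulated data. Correlations used log2 CPM scaled by the TMM factors, with a prior count of 2. No library duplicated another of the same group and time point, and other pairs were not compared. The intervals of human shares (95% Wilson) and a floor of 3 counts cover counting error only, and every value printed for the 8 genes lay above that floor. Alternatives were DESeq2 1.42.0, other scalings, no filter, ZT as a factor, replicate blocks, subsets by human share or replicate number, and each library left out. Figures were drawn with matplotlib 3.10.9.

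The 8 genes and the lists were chosen with earlier results of these data known. Named are the 8 genes, up to 3 genes per list higher and 3 lower in Hu with the smallest p, duct and Afp-related genes where a sentence needs them, and the 3 genes most like each of the 8. Trem2 and Gpnmb were named after their values were seen. Results of some genes are not reported here.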

Additional observations from a re-analysis of the deposited data

Results flagged for a closer look

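The daily rhythm of Sox9 differed between the groups by a test of the difference itself (edgeR interaction of 24 h terms, adjusted p = 0.0212). Its amplitude was 0.92 in Mu and 0.03 in Hu livers on the log2 scale. Both Mu livers were low at ZT 6 and 10 and high at ZT 18 and 22, while the 3 Hu livers of ZT 18 alone spanned 18.9 to 58.7 CPM. Per all rows, the amplitudes were 0.88 and 0.64, and the difference missed the threshold (edgeR adjusted p = 0.166). It also missed it without TMM factors (edgeR adjusted p = 0.116), without ZT 2 (edgeR adjusted p = 0.0511) and with ZT as a factor.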

How the results depend on the processing

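The level results kept their direction and their side of the threshold for all 8 genes under every alternative run. Leaving out 1 library gave 11692 to 11922 genes with a level difference (11907 with all). The log2 differences then ranged from 1.64 to 2.01 for Krt19, 1.96 to 2.24 for Krt7, 2.08 to 2.36 for Epcam, 1.17 to 1.25 for Sox9, 2.05 to 2.27 for Spp1, 3.64 to 4.04 for Prom1, 2.17 to 2.39 for Cftr and 3.54 to 5.39 for Afp. Both libraries with extreme Afp were left out together after seeing the data, which gave 4.85 for Afp, and so was ZT 2.

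Counts of rhythms moved most. Rhythmic genes in Mu livers (2598) numbered 85 per all rows, 640 with ZT as a factor, 1715 without ZT 2, and 1460 (without Mu ZT 18 replicate 2) to 3559 (without Hu ZT 18 replicate 3) with 1 library left out. In Hu livers (25) they were 516 with DESeq2, 8605 per all rows, 8 with ZT as a factor, 6 without ZT 2 and 8 (without Hu ZT 2 replicate 3) to 827 (without Hu ZT 2 replicate 2). Rhythm differences (192) numbered 1152 with DESeq2, 111 without TMM, 11 per all rows, 107 without the filter, 11 with ZT as a factor, 102 with Hu livers under 70% only, 25 without ZT 2, 66 without both libraries of extreme Afp and 38 (without Mu ZT 6 replicate 2) to 1009 (without Mu ZT 6 replicate 1) with 1 left out. Of the 8 genes, 0 differed in rhythm without TMM, per all rows, with ZT as a factor or without ZT 2. Per all rows 0 were rhythmic in Mu and 3 in Hu livers (Sox9 with an amplitude of 0.64, Spp1 0.71 and Cftr 0.74). Of the 14732 genes tested on that scale, 85 were rhythmic in Mu and 8605 in Hu livers, so the 3 do not stand out. The cause was not tested.

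Slopes on the human share depended on the scale, and per all rows the share and the level have the same denominator. Genes with a slope (5792) numbered 11066 per all rows, and 3365 (without Hu ZT 18 replicate 3) to 6227 with 1 liver left out. Positive slopes among the 8 (5) were 0 per all rows, 3 with no terms for time and 0 to 5 with 1 liver left out. Per all rows the slopes were 0.045 for Krt19, -0.023 for Krt7, -0.061 for Epcam, -0.20 for Sox9, -0.11 for Spp1, -0.32 for Prom1 and -0.073 for Cftr. Without TMM that of Sox9 was 0.21 and passed the threshold (edgeR adjusted p = 0.0129). With no terms for time those of Spp1 and Cftr were 0.11 and 0.13. With 1 liver left out they ranged from 0.29 to 0.45 for Krt19, 0.25 to 0.34 for Krt7, 0.18 to 0.32 for Epcam, 0.13 to 0.28 for Spp1 and 0.14 to 0.26 for Cftr. Beyond the denominator that the share and the level per all rows have in common, the cause of these shifts was not tested.

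The labels do not say whether equal replicate numbers share a batch. Deviations of same-numbered Hu and Mu livers correlated by 0.00361 to 0.337 (mean 0.122), over 0.1 in 7 of 12 pairs, and both pairs of a time with 2 livers per group give the same value. Since not every pair exceeded 0.1, the numbers were not taken as pairs. With the replicate number as a block 11519 genes differed in level and all 8 genes were higher, rhythms numbered 2648 in Mu and 29 in Hu livers and their differences 138. A block of pairs gave 11358 genes. Counting error is largest where counts are few, as for Cftr (from 36 counts) and Krt7 (from 75 counts).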
